A study of Mus musculus with 12 samples.

Results

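The genes described here are 46 genes of mitosis, the kinetochore and sister chromatid cohesion, out of 24411 genes in the deposited tables. They were chosen by name, for their known roles, with earlier results of these data known, and the kinesins were left out. All 46 were found and all 46 were among the 14311 genes kept by a filter on low counts, so no member dropped out. They fall into 7 groups by role. These are 10 kinases, cyclins and phosphatases of mitotic entry, 4 subunits of the chromosomal passenger complex, 6 genes of the spindle checkpoint and the anaphase-promoting complex (APC/C), 7 of the centromere and kinetochore, 8 of condensin and chromosome structure, 4 of sister chromatid cohesion and 7 of the spindle and cytokinesis.

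RNA was sequenced from the cerebral cortex of 12 mouse embryos, with 1 embryo per library and 3 embryos in each of 4 groups. The groups are wild-type embryos (WT) at E12.5 and at E14.5 (E, embryonic day) and HARE5Hs/Hs knock-in embryos at the same 2 ages. The knock-in puts the human version of HARE5, which enhances transcription of the Wnt receptor gene Fzd8, in place of the mouse version on both chromosomes. No treatment was given. Litter, sex, strain background and the number of founder lines are not stated in the labels, and each library is a whole piece of cortex with progenitors, neurons and other cells together. In such bulk tissue, fewer cells of a type and less RNA per cell cannot be told apart.

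In the developing cortex, radial glia divide at the ventricular surface and give rise to intermediate progenitors and neurons, and neurons do not divide again. Genes of mitosis are thus read from dividing cells, which here are the progenitors and any dividing cells of vessels, meninges and blood. Most of these genes are transcribed late in the cell cycle, when the MuvB complex, bound to a promoter element called the CHR (cell cycle genes homology region), stops acting as a repressor and works with B-Myb and FOXM1 as an activator. The factor NF-Y, bound to CCAAT boxes nearby, is the usual partner. Their products condense the chromosomes (condensin, topoisomerase), hold sister chromatids together until anaphase (cohesin and its regulators), attach them to the spindle (kinetochore), delay anaphase until all are attached (the checkpoint) and then divide the cell (cytokinesis).

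The promoters of these genes are shown because most of those matched carry the same motifs. RefSeq windows of 300 bases on GRCm38.p6 (250 before and 50 after a gene's start) were matched by symbol for 37 of the 46 members, which gave 39 windows. Ccna2, Cdc25c, Tpx2, Aurkb, Incenp, Spc24, Smc4, Cdca2 and Esco2 had no entry. The letters TTTGAA and TTCGAA, the core of the CHR, and CCAAT were searched on both strands, and a base may count in more than 1 motif. The 110 bases just before the start are printed for 8 members named below, all of which hold motifs in that stretch. They are given on the strand of the gene, with the motifs in capitals (ATTGG is CCAAT and TTCAAA is TTTGAA read on the other strand).
Cdk1 (chr10:69352913-69353022, minus strand): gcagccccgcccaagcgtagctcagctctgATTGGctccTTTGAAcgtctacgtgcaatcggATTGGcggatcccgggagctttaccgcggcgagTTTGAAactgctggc
Cdc20 (chr4:118437344-118437453, minus strand): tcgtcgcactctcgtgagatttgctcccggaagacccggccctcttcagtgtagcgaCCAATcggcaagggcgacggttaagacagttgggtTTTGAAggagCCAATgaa
Espl1 (chr15:102296183-102296292, plus strand): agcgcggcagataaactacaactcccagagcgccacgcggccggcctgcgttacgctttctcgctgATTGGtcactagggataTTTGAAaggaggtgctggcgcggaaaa
Cdca5 (chr19:6084987-6085096, plus strand): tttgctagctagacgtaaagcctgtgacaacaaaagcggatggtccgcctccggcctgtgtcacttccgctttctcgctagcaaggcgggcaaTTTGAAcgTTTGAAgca
Prc1 (chr7:80294366-80294475, plus strand): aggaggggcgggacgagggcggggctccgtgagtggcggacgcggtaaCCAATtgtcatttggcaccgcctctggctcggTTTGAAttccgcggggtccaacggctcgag
Top2a (chr11:99024190-99024299, minus strand): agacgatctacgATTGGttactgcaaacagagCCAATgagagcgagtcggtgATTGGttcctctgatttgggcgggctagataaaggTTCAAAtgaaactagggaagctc
Ckap2 (chr8:22185820-22185929, minus strand): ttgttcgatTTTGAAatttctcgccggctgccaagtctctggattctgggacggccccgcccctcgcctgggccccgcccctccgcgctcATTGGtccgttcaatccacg
Ccnb1 (chr13:100786487-100786596, minus strand): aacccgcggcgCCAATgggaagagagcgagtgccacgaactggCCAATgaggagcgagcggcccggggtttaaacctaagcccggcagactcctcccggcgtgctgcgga

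At least 1 TTTGAA or TTCGAA lay in 31 of the 39 member windows, which is 79.5%. The same letters lay in 13.3% of the 13852 promoters of genes tested here and in 19.2% of all 32851 promoters. A CCAAT lay in 76.9% of the member windows and in 37.5% of the promoters of tested genes. Both together lay in 71.8% of member windows, in 5.54% of the promoters of tested genes and in 13.5% of the 37 windows of DNA replication genes. Espl1, Prc1 and Cdc20 show a CCAAT box and a TTTGAA in the printed stretch. Cdca5 shows 2 neighbouring TTTGAA and no CCAAT there, and Ccnb1 shows 2 CCAAT boxes and no TTTGAA. Birc5, Mad2l1, Ncaph, Nuf2, Nusap1 and Pttg1, which are not printed, had none of these motifs in their windows. A match is a description of letters, and no binding was measured.

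The libraries held 11593202 to 17670103 expected counts, and the replicates of each group differed by more than counting noise (chi-square over its degrees of freedom, 14.1 to 24.9). Emx1, which marks the dorsal telencephalon, was present in all 12 libraries (47.1 to 76.9 CPM, counts scaled to library size). Replicate 3 of E14.5 HARE5Hs/Hs stood apart, with the lowest total, the fewest genes detected (14537) and almost no RNA of meninges (7 genes, 10.9 CPM in sum) or of choroid plexus and hem (6 genes, 1.37 CPM). Replicate 3 of E12.5 HARE5Hs/Hs held the most erythroid RNA, 14894 CPM over 8 genes against 4414 to 6254 CPM in the other E12.5 libraries.

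All members were well above the filter. Per transcript length, mean FPKM (fragments scaled by transcript length and library size) over the 12 libraries ran from 178 for Ube2c, the ubiquitin-conjugating enzyme of the APC/C, and 171 for Top2a, topoisomerase II alpha, down to 14.2 for Anln, anillin of the cleavage furrow, and 12.2 for Esco2, the acetyltransferase that locks cohesin on replicated DNA. The next in the order after the highest 2 were Cdca3 (122), Ncapd2 (119), Mki67 (111), Ccnb1 (106) and Cdc20 (105). Ranges over the 12 libraries, which span both ages and genotypes, overlapped between neighbours. Ube2c, for example, ran from 112 to 243 and Top2a from 129 to 211 FPKM. Within a group some neighbours were apart, such as Top2a at 163 ± 8.41 and Cdca3 at 113 ± 14.6 FPKM in E14.5 WT (SD, n = 3). The order of the means of Ube2c and Top2a also changed with age. Ube2c was at 214 ± 29.8 and Top2a at 184 ± 20.6 FPKM in E12.5 WT. In E14.5 WT they were at 156 ± 18.2 and 163 ± 8.41 FPKM. The 4 cohesion genes were all in the lower part of the order, with Cdca5 at 29.1, Espl1 at 19.5 and Pttg1, securin, at 17.9 FPKM. The summed level of the 46 members was 8455 to 9889 CPM in E12.5 WT and 8971 to 9711 CPM in E12.5 HARE5Hs/Hs. It was 7173 to 8129 CPM in E14.5 WT and 6115 to 7306 CPM in E14.5 HARE5Hs/Hs. Both E14.5 groups lay below both E12.5 groups without overlap, while the genotypes overlapped at each age.

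**Figure D1:**
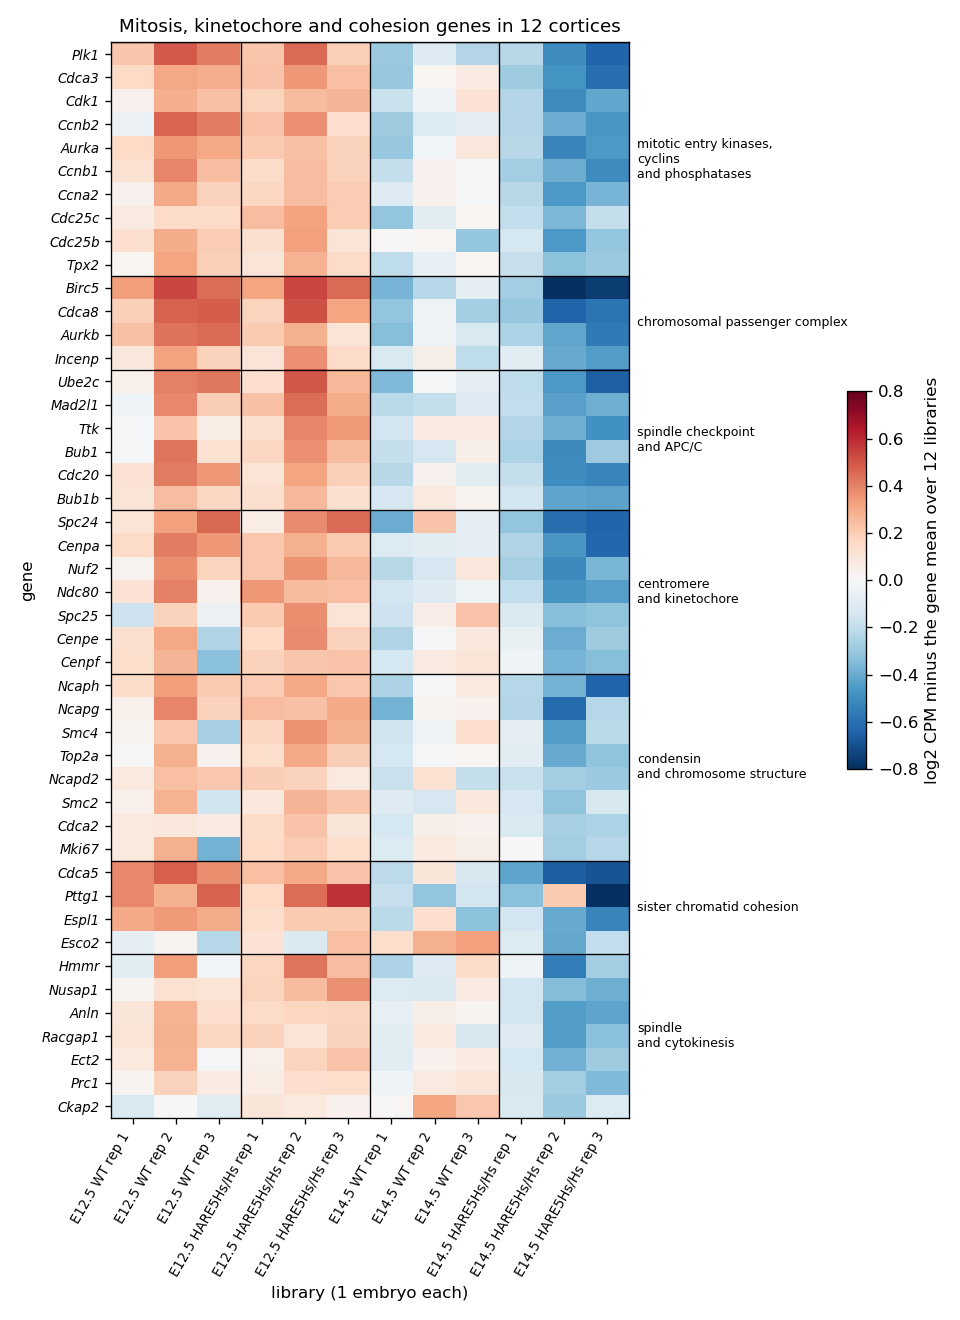
Level of each of the 46 members (rows, by role) in each of the 12 libraries (columns), as log2 CPM minus the gene's mean over the libraries; red is above and blue below that mean. The E14.5 HARE5Hs/Hs libraries, replicates 2 and 3 most, are blue over nearly all rows, and Esco2 and Ckap2 are red in E14.5 WT.

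The 12 libraries differed in how far the members as a whole stood above or below their means. The median deviation over members, on the log2 CPM scale, was 0.08, 0.31 and 0.19 in E12.5 WT and 0.17, 0.29 and 0.21 in E12.5 HARE5Hs/Hs. In E14.5 WT it was −0.18, 0.00 and 0.02, and in E14.5 HARE5Hs/Hs −0.19, −0.42 and −0.39. Replicate 1 of E14.5 HARE5Hs/Hs lay near replicate 1 of E14.5 WT, the lowest of that group, and below replicates 2 and 3 of E14.5 WT. Replicates 2 and 3 of E14.5 HARE5Hs/Hs lay lowest of the 12 libraries. Those 2 libraries also held the highest sums of the 8 cortical neuron genes, 5969 and 6276 CPM, against 4480 CPM in replicate 1 and 3664 to 4786 CPM in E14.5 WT. They held more erythroid RNA too, 5939 and 4546 CPM against 2635 CPM in replicate 1 and 781 to 2331 CPM in E14.5 WT. The part of these cells in the members' levels was not tested.

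In WT cortex, mitotic genes were lower at E14.5 than at E12.5. The chromosomal passenger complex had the lowest median change, and condensin and the spindle genes had those nearest 0. This order of roles was not computed without single embryos. In replicate 3 of E12.5 the condensin list summed to 3011 CPM, against 3304 and 3844 CPM in replicates 1 and 2. The passenger complex summed to 649 CPM there, against 575 and 674 CPM. Of the 46 members, 17 fell and 2 rose (edgeR quasi-likelihood test, Benjamini-Hochberg adjusted p under 0.05 over all 14311 genes), where 15.2% of all genes tested fell and 20.0% rose. The median log2 fold change was −0.27 (0.829-fold), against −0.01 over all genes, and 43 of the 46 were below 0 (50.8% of all genes). The 3 embryos of the 2 ages did not overlap for 27 members that were lower and 2 that were higher, where 22.9% and 26.1% of all genes did so. DESeq2 called 27 members, 26 of them lower (38.0% of all genes called). The number that fell rests on single embryos: it was 7 without replicate 2 of E12.5, 8 without replicate 3 of E12.5, 7 without replicate 1 of E14.5 and 27 without replicate 1 of E12.5.

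Of the mitotic entry genes, 7 of 10 fell in WT, with a median of −0.31. Plk1, the polo-like kinase that drives entry and spindle assembly, was at 134, 161 and 153 CPM in E12.5 WT and at 93.6, 107 and 97.9 CPM at the older age. The ages did not overlap, and Plk1 fell by 0.59 on the log2 scale (SE 0.11, edgeR adjusted p = 0.00224). Ccnb2, cyclin B2, was at 74.4, 107 and 103 CPM at E12.5 and 63.2, 71.5 and 73.2 CPM at E14.5 and fell by 0.45 (SE 0.13, edgeR adjusted p = 0.0167). Ccnb1, cyclin B1, the main partner of Cdk1 at entry, was at 241, 291 and 264 CPM and then 194, 227 and 221 CPM, and fell by 0.31 (SE 0.09, edgeR adjusted p = 0.0178). Cdk1 itself stood at 160, 192 and 184 CPM and then 139, 154 and 170 CPM. Its ages overlapped, and its change of −0.21 (SE 0.10) did not pass (edgeR adjusted p = 0.105). Cdca3, a trigger of mitotic entry, Aurka, Aurora A kinase, Cdc25b, a phosphatase that activates Cdk1, and Tpx2, the activator of Aurora A, were the others that fell. Ccna2, cyclin A2, and Cdc25c did not pass.

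Within the chromosomal passenger complex, which corrects faulty attachments and later directs cytokinesis, 3 of 4 subunits fell, with a median of −0.56. Birc5 (survivin) was at 109, 126 and 118 CPM at the younger age and at 67, 74 and 82.2 CPM at the older, a change of −0.66 (SE 0.14, edgeR adjusted p = 0.00363). Cdca8 (borealin) went from 138, 167 and 169 CPM to 97, 117 and 99.8 CPM (−0.59, SE 0.12, edgeR adjusted p = 0.00311). Aurkb, the Aurora B kinase at the core of the complex, went from 121, 139 and 141 CPM to 81.2, 101 and 94.3 CPM (−0.53, SE 0.10, edgeR adjusted p = 0.00213). None of these 3 overlapped between ages. Incenp, the scaffold, did not pass.

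The checkpoint and APC/C genes that fell in WT were 3 of 6, with a median of −0.32. They were Cdc20, the activator of the APC/C, Mad2l1 (Mad2), the checkpoint protein that holds Cdc20 back, and Ube2c. Cdc20 was at 178, 219 and 208 CPM at E12.5 and 140, 168 and 155 CPM at E14.5 (−0.39, SE 0.11, edgeR adjusted p = 0.018). Mad2l1 was at 66, 88.3 and 77.5 CPM and then 58.1, 59.2 and 62.9 CPM (−0.36, SE 0.11, edgeR adjusted p = 0.0209). Ttk (Mps1), the kinase that starts checkpoint signalling, was at 54.1, 64 and 57 CPM and then 49.2, 57.1 and 57.3 CPM. Its embryos overlapped and its change was −0.10 (SE 0.10, edgeR adjusted p = 0.496).

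Of the 7 centromere and kinetochore genes, Cenpa alone passed in WT. Cenpa, the histone H3 variant that marks the centromere, was at 98.3, 117 and 113 CPM at E12.5 and 82, 83.1 and 83.9 CPM at E14.5, and it fell by 0.40 (SE 0.09, edgeR adjusted p = 0.00685). Ndc80, the microtubule-binding subunit of the complex of that name, was at 50.3, 61.4 and 47.6 CPM and then 41.7, 43.2 and 45.3 CPM. Its ages did not overlap, but it just missed the threshold (−0.29, SE 0.11, edgeR adjusted p = 0.053). Its partners Nuf2 (−0.28, SE 0.11, edgeR adjusted p = 0.056) and Spc25 (0.05, SE 0.12, edgeR adjusted p = 0.795) did not pass. Among the 8 condensin and chromosome structure genes only Ncapd2, a condensin I subunit, fell, from 541, 605 and 594 CPM to 452, 556 and 449 CPM (−0.26, SE 0.09, edgeR adjusted p = 0.0397). Its partner Ncaph was at 126, 143 and 131 CPM and then 95.6, 112 and 120 CPM (−0.29, SE 0.11, edgeR adjusted p = 0.0555). Top2a was at 852, 1042 and 875 CPM and then 776, 845 and 865 CPM, and its ages overlapped (−0.16, SE 0.10, edgeR adjusted p = 0.241).

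**Figure D2:**
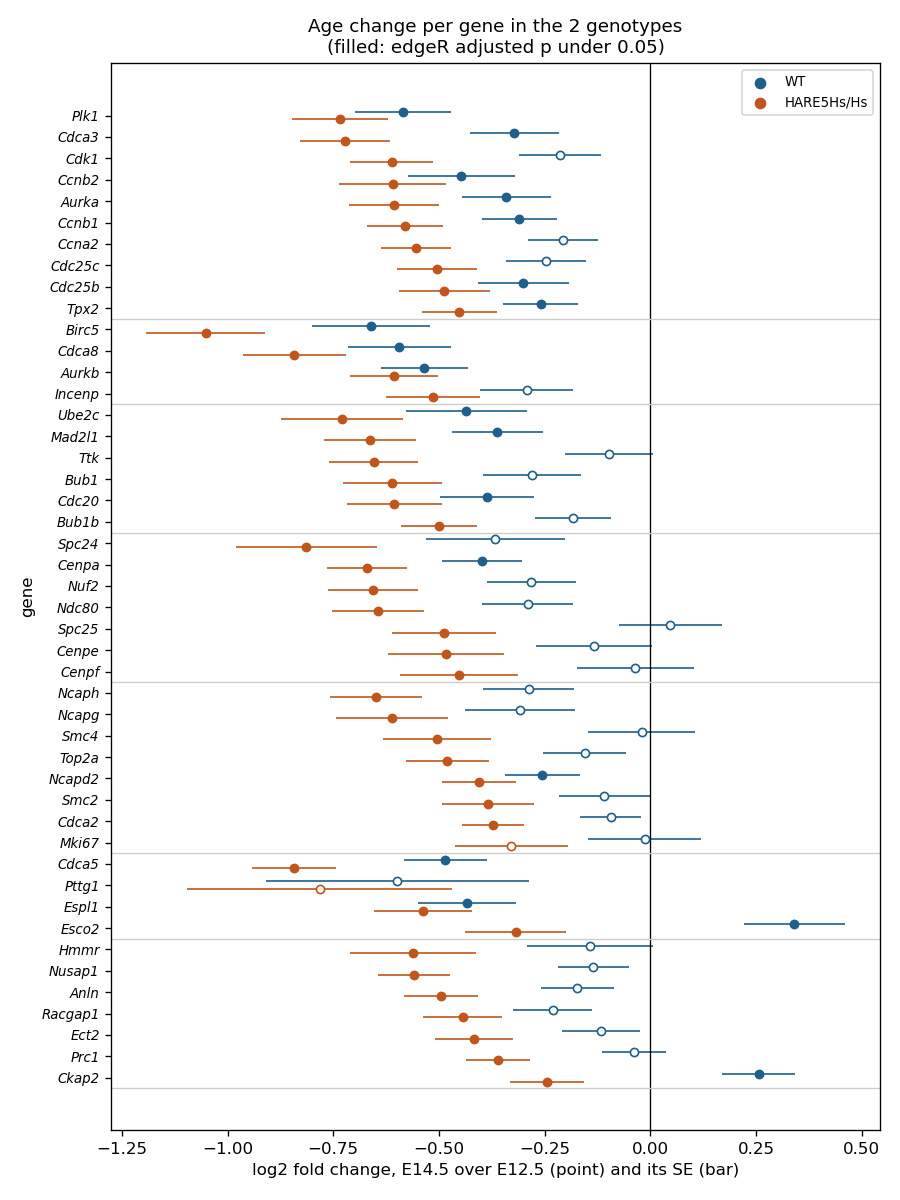
Log2 fold change of each member from E12.5 to E14.5 (point) with its SE (bar) in WT (blue) and HARE5Hs/Hs (orange), grouped by role; filled points passed the edgeR test. The orange point lies left of the blue one for all 46 members, and Esco2 and Ckap2 have filled points on opposite sides of 0.

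The 4 cohesion genes went both ways in WT. Cdca5 (sororin), which keeps cohesin on chromatids until mitosis, was at 62.8, 67.3 and 62.4 CPM at E12.5 and 41.8, 51.6 and 44.1 CPM at E14.5. It fell by 0.49 (SE 0.10, edgeR adjusted p = 0.0028). Espl1 (separase), the protease that opens cohesin at anaphase, was at 152, 156 and 151 CPM and then 106, 135 and 98.2 CPM, and fell by 0.43 (SE 0.12, edgeR adjusted p = 0.0124). Pttg1, the inhibitor of separase, did not pass. Esco2 was the exception. It was at 31.2, 33.4 and 28 CPM at E12.5 and 36.2, 40 and 41.2 CPM at E14.5, so that every older embryo lay above every younger one, and it rose by 0.34 (SE 0.12, edgeR adjusted p = 0.0421).

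Among the 7 spindle and cytokinesis genes none fell in WT and Ckap2, a microtubule-binding protein of the spindle, rose. Ckap2 was at 70.3, 76.5 and 71.5 CPM at E12.5 and 76.8, 95 and 88.9 CPM at E14.5 (0.26, SE 0.09, edgeR adjusted p = 0.0368). Prc1, which bundles the microtubules of the central spindle, was level, at 218, 244 and 225 CPM and then 211, 226 and 231 CPM (−0.04, SE 0.07, edgeR adjusted p = 0.717). Racgap1, of the centralspindlin complex that places the cleavage furrow, was at 285, 324 and 299 CPM and then 249, 281 and 243 CPM (−0.23, SE 0.09, edgeR adjusted p = 0.0706), short of the threshold. The rises of Ckap2 and Esco2 were near the threshold. Ckap2 no longer passed with total-count scaling (0.19, edgeR adjusted p = 0.103), and Esco2 did not pass with it either (0.28, edgeR adjusted p = 0.09). Of the 6 fits that left out 1 WT embryo, Ckap2 missed the threshold in 4 and Esco2 in 5.

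In HARE5Hs/Hs cortex the same interval brought lower levels of nearly every member. Of the 46, 44 fell and none rose, where 22.0% of all genes tested fell and 23.7% rose. The median log2 fold change was −0.56 (0.678-fold), against −0.03 over all genes, and all 46 were below 0 (52.3% of all genes). For 44 members the 3 embryos at E14.5 all lay below the 3 at E12.5, where 29.6% of all genes did so. Leaving out any 1 embryo gave 40 to 45 members that fell, with 41 without replicate 3 of E14.5, and DESeq2 called 46 (47.0% of all genes called). The medians by role were −0.72 for the chromosomal passenger complex, −0.66 for cohesion, −0.64 for the kinetochore, −0.63 for the checkpoint and APC/C, −0.59 for mitotic entry and −0.44 each for condensin and for the spindle. All 17 members that fell in WT fell here as well, which is 100% of those of WT and 38.6% of the 44 of HARE5Hs/Hs.

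The lowest change was that of Birc5, at 108, 125 and 119 CPM in E12.5 HARE5Hs/Hs and 71.6, 46.6 and 51.2 CPM at E14.5. It fell by 1.05 (SE 0.14, edgeR adjusted p = 0.000159). Cdca8 went from 136, 172 and 150 CPM to 97.9, 77.4 and 80.3 CPM (−0.84, SE 0.12, edgeR adjusted p = 0.000255). Cdca5 had the smallest p of the members, going from 57.1, 59.6 and 56.5 CPM to 35.9, 30.6 and 29.9 CPM (−0.84, SE 0.10, edgeR adjusted p = 8.65e-05). In each of these genes replicate 1 was the highest of the E14.5 embryos, as it was for the members together.

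Mitotic entry genes fell throughout, 10 of 10. Plk1 was at 134, 158 and 131 CPM at E12.5 and 98.4, 81.4 and 74.1 CPM at E14.5 (−0.73, SE 0.11, edgeR adjusted p = 0.000371). Cdca3 was at 181, 197 and 183 CPM and then 127, 111 and 102 CPM (−0.72, SE 0.11, edgeR adjusted p = 0.000267). Cdk1 and its cyclins moved alike. Cdk1 went from 177, 187 and 189 CPM to 134, 111 and 118 CPM (−0.61, SE 0.10, edgeR adjusted p = 0.000433). Ccna2, which acts in S phase and at entry, went from 297, 315 and 304 CPM to 227, 193 and 204 CPM (−0.55, SE 0.08, edgeR adjusted p = 0.000297). Ccnb1 went from 245, 263 and 252 CPM to 183, 169 and 157 CPM (−0.58, SE 0.09, edgeR adjusted p = 0.000347). None of the 5 overlapped between ages.

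All 6 checkpoint and APC/C genes and all 7 kinetochore genes fell. Ttk, level in WT, went from 59.8, 71.7 and 69.2 CPM to 46.5, 41.8 and 39.1 CPM (−0.65, SE 0.11, edgeR adjusted p = 0.000451). Mad2l1 went from 79.4, 92.2 and 83.1 CPM to 59, 50.1 and 51.7 CPM (−0.66, SE 0.11, edgeR adjusted p = 0.000493). The kinetochore genes that had missed the threshold in WT were clear of it here. Nuf2 went from 90.1, 99.3 and 93 CPM to 64.5, 54.5 and 60.1 CPM (−0.66, SE 0.11, edgeR adjusted p = 0.000487). Ndc80 went from 58.9, 55.4 and 54.8 CPM to 40.5, 33.4 and 34.2 CPM (−0.64, SE 0.11, edgeR adjusted p = 0.000605). Spc25 went from 67.2, 75.1 and 62.4 CPM to 53.6, 45.9 and 46.5 CPM (−0.49, SE 0.12, edgeR adjusted p = 0.00666). Cenpa went from 103, 108 and 102 CPM to 74.7, 64.1 and 57.3 CPM (−0.67, SE 0.10, edgeR adjusted p = 0.000228).

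Of condensin and chromosome structure, 7 of 8 fell. Ncaph went from 130, 140 and 132 CPM to 96.7, 87.1 and 72.6 CPM (−0.65, SE 0.11, edgeR adjusted p = 0.000585). Cdca2 (Repo-Man), which brings a phosphatase to chromatin at mitotic exit, went from 102, 108 and 98.4 CPM to 84.5, 76.3 and 77.3 CPM (−0.37, SE 0.07, edgeR adjusted p = 0.00153). Top2a went from 943, 1055 and 982 CPM to 806, 646 and 685 CPM (−0.48, SE 0.10, edgeR adjusted p = 0.00208). All 7 spindle and cytokinesis genes fell as well. Nusap1, which stabilises spindle microtubules at chromosomes, went from 164, 172 and 187 CPM to 130, 114 and 110 CPM (−0.56, SE 0.08, edgeR adjusted p = 0.000316). Anln went from 82.1, 83.1 and 83.4 CPM to 66.7, 54.3 and 55.2 CPM (−0.50, SE 0.09, edgeR adjusted p = 0.000796). Racgap1 went from 301, 286 and 301 CPM to 248, 195 and 211 CPM (−0.44, SE 0.09, edgeR adjusted p = 0.00231).

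The 2 members that did not pass in HARE5Hs/Hs were Mki67 and Pttg1. Mki67 encodes Ki-67, the coat of mitotic chromosomes and the common marker of cycling cells. It was at 1211, 1250 and 1200 CPM at E12.5 and 1089, 898 and 928 CPM at E14.5, without overlap (−0.33, SE 0.13, edgeR adjusted p = 0.0618). In WT it was at 1148, 1321 and 837 CPM and then 1009, 1145 and 1122 CPM, a change of −0.01 (SE 0.13, edgeR adjusted p = 0.949). Replicate 3 of E12.5 WT was thus the lowest of the 12 libraries for Mki67, and without that embryo the WT change was −0.16, while without replicate 2 it was 0.15. The same library was low for Cenpf, Cenpe and Smc4 and high for Spc24, Ccnb2 and Aurkb, as the heat map by library shows. Pttg1 was measured at few counts, at 10.9, 13.4 and 14.6 CPM and then 7.77, 11.3 and 3.37 CPM (−0.78, SE 0.31, edgeR adjusted p = 0.0579). Single embryos set this value: it was −1.20 without replicate 2 of E14.5, where it passed (edgeR adjusted p = 0.00989), and −0.43 without replicate 3 (edgeR adjusted p = 0.125). It also passed with total-count scaling (−0.87, edgeR adjusted p = 0.0403) and by DESeq2 (−0.78, DESeq2 adjusted p = 0.0305).

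The authors' deposited table, which holds their own DESeq2 comparison of the ages in each genotype, gives 18 members past an adjusted p of 0.05 in WT, all lower at E14.5, where 16.0% of the genes in that table with an adjusted p were lower. It gives 43 in HARE5Hs/Hs, all lower, against 20.7% of genes. The median log2 fold changes of the members in the authors' deposited table are −0.29 and −0.56.

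Between genotypes at E12.5 the members did not stand apart. None of the 46 passed, and none of all 14311 genes did by edgeR or by DESeq2 (0.00% called in either). No member had an unadjusted p under 0.05, where 2.25% of all genes did. The median log2 difference, HARE5Hs/Hs over WT, was 0.02, and 16 of 46 were below 0 (49.3% of all genes). That split rests on single embryos: 28 were below 0 without replicate 1 of WT (median −0.04), 9 without replicate 2 of WT (median 0.08) and 11 to 23 without 1 of the other 4. The highest values were those of Smc4, a condensin subunit, at 252, 288 and 206 CPM in WT and 277, 317 and 301 CPM in HARE5Hs/Hs (0.26, SE 0.13), and of Spc25 (0.24, SE 0.12). The 5 with the smallest p were Nusap1 (0.18, SE 0.08), Smc4, Spc25, Ttk (0.20, SE 0.10) and Aurkb (−0.18, SE 0.10), each with an edgeR adjusted p of 1. The 2 genotypes did not overlap for 2 members that were lower in HARE5Hs/Hs, Cdca5 and Espl1, and 4 that were higher, Cdc25c, Cdca2, Ckap2 and Nusap1 (3.81% and 3.34% of all genes).

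At E14.5 every member had a lower mean in HARE5Hs/Hs than in WT, but none passed. The median log2 difference was −0.26 (0.834-fold), against −0.01 over all genes, and 46 of 46 were below 0, where 51.4% of all genes were. The differences ran from −0.51 to −0.13. None of the 46 members and none of all genes passed by edgeR (0.00% called), with adjusted p-values of 0.342 to 0.852 among the members. Without adjustment 28 members had a p under 0.05, where 11.9% of all genes did. DESeq2 called 35 genes in all (0.245%), and 1 of them, Cdca5, was a member. The genotypes did not overlap for 16 members, all lower in HARE5Hs/Hs, where 8.93% of all genes were lower and 9.48% higher without overlap. Since members rise and fall together across embryos, these counts are not 46 separate observations.

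Cdca5 had the smallest p of the members at E14.5. It was at 41.8, 51.6 and 44.1 CPM in WT and at 35.9, 30.6 and 29.9 CPM in HARE5Hs/Hs, so the groups did not overlap. The difference was −0.51 (SE 0.10, edgeR adjusted p = 0.342, DESeq2 adjusted p = 0.0189). Its genotypes were also separate at E12.5, at 62.8, 67.3 and 62.4 CPM against 57.1, 59.6 and 56.5 CPM, where the difference was smaller (−0.15, SE 0.10, edgeR adjusted p = 1). Cdca5 was the only member whose genotypes did not overlap in the same direction at both ages. Prc1 was at 211, 226 and 231 CPM in WT and 197, 178 and 169 CPM in HARE5Hs/Hs (−0.30, SE 0.08, edgeR adjusted p = 0.342). Ccna2 was at 247, 270 and 261 CPM and 227, 193 and 204 CPM (−0.32, SE 0.08, edgeR adjusted p = 0.342). By role, the medians at E14.5 were −0.36 for cohesion, −0.30 for the checkpoint, −0.29 for the kinetochore, −0.28 for mitotic entry, −0.27 for the passenger complex, −0.27 for the spindle and −0.21 for condensin.

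**Figure D3:**
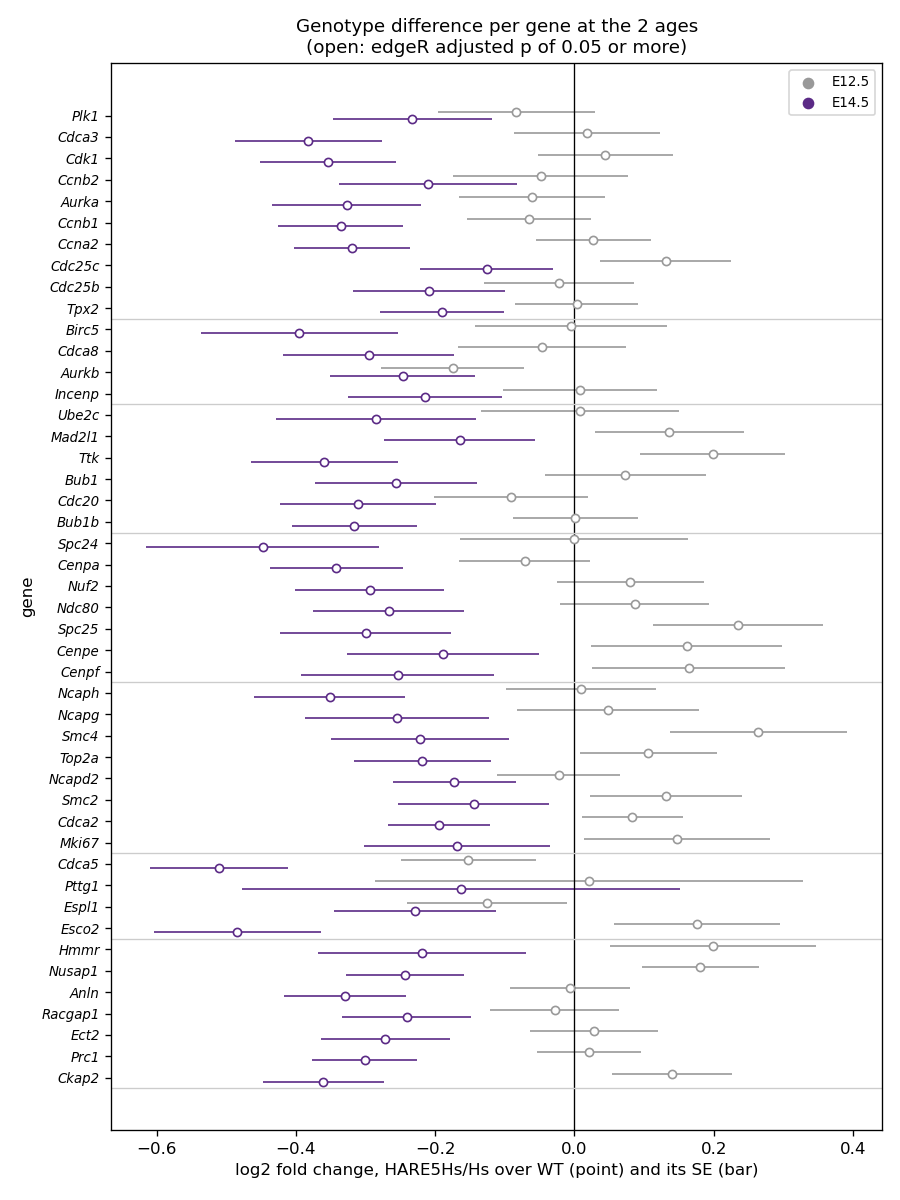
Log2 difference of each member between HARE5Hs/Hs and WT (point) with its SE (bar) at E12.5 (grey) and E14.5 (purple), grouped by role. All 46 purple points lie left of 0 and none passed the edgeR test, while 16 of the 46 grey points lie left of 0.

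Leaving out each of the 6 E14.5 embryos in turn gave medians of −0.34 to −0.22, with 45 of 46 members below 0 without replicate 3 of E14.5 HARE5Hs/Hs and 46 of 46 in the other 5 fits. The count of members called was 0 in all 6. Averaged over both ages, no member passed (0.00% of all genes called by edgeR), the median was −0.12 and 44 of 46 were below 0 (51.5% of all genes), with 37 to 46 below 0 when 1 of the 12 libraries was left out. In that average 13 members had an unadjusted p under 0.05 (9.55% of all genes). Those with the smallest were Cdca5 (−0.33, SE 0.07), Ccnb1 (−0.20, SE 0.06), Cenpa (−0.21, SE 0.07), Aurkb (−0.21, SE 0.07) and Anln (−0.17, SE 0.06), each with an edgeR adjusted p of 0.508.

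The test of whether the age change differed between genotypes also left every member short of the threshold. The interaction compares the same 12 libraries as above, so its values restate the differences just given. The median was −0.32 on the log2 scale, all 46 members were below 0 (52.7% of all genes), and 19 had an unadjusted p under 0.05 (5.11% of all genes). The edgeR adjusted p-values of the members were 0.921 to 0.976 (0.00% of all genes called), and DESeq2 called 1 gene in all (0.00699%), which was no member. Thus the 27 members that fell in HARE5Hs/Hs and did not fall in WT are not shown to differ between the genotypes.

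The smallest interaction p-values among the members were those of Ckap2, Esco2, Ttk, Nusap1 and Spc25. Esco2 gave −0.66 (SE 0.17, edgeR adjusted p = 0.921), from 36.2, 40 and 41.2 CPM in E14.5 WT against 30.5, 24.7 and 28.7 CPM in E14.5 HARE5Hs/Hs. At E12.5 Esco2 overlapped between genotypes, with 35.6, 30.4 and 38.8 CPM in HARE5Hs/Hs, and it fell there by 0.32 with age (SE 0.12, edgeR adjusted p = 0.0458). Ckap2 gave −0.50 (SE 0.12, edgeR adjusted p = 0.921), with 81.6, 80.7 and 78.1 CPM in E12.5 HARE5Hs/Hs and 70.2, 62.1 and 70.8 CPM at E14.5, a change of −0.24 (SE 0.09, edgeR adjusted p = 0.0364). These falls missed the threshold in 4 (Esco2) and 5 (Ckap2) of the 6 fits without 1 HARE5Hs/Hs embryo. At E14.5 the genotypes of both genes were separate, by −0.48 (SE 0.12) for Esco2 and −0.36 (SE 0.09) for Ckap2, each with an edgeR adjusted p of 0.342. Ttk (−0.56, SE 0.15), Nusap1 (−0.42, SE 0.12) and Spc25 (−0.54, SE 0.17) followed, with an edgeR adjusted p of 0.921 each.

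**Figure D4:**
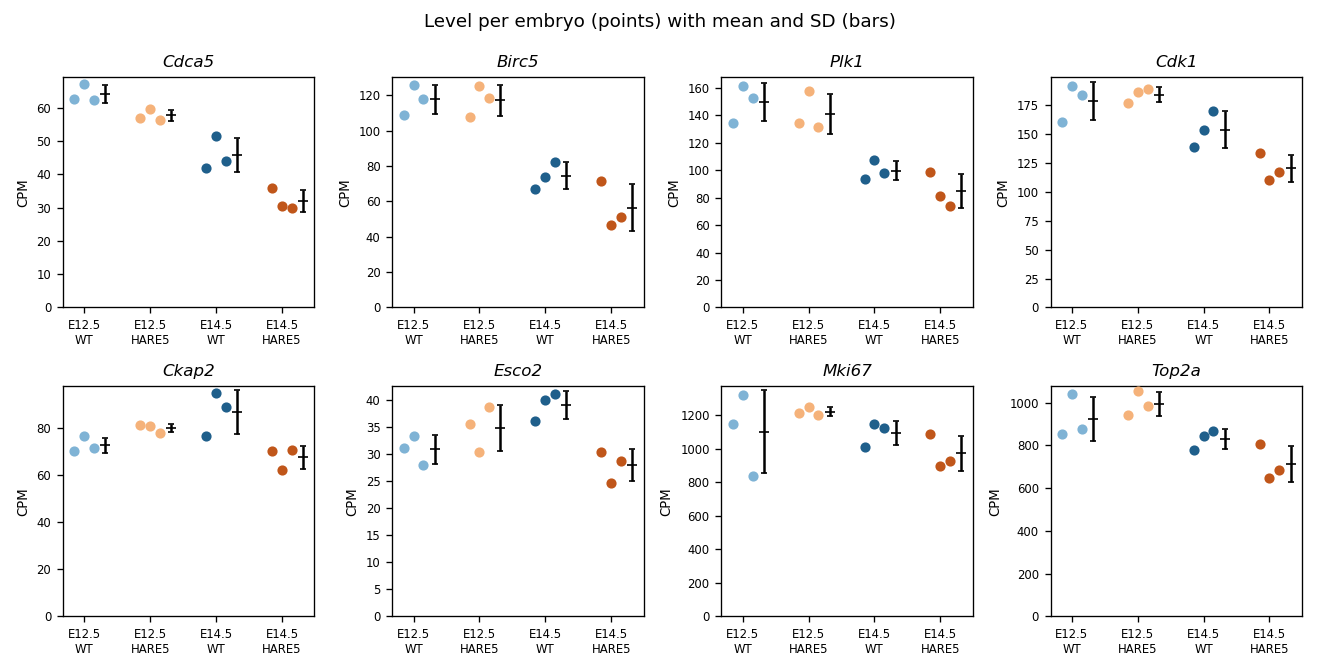
CPM of 8 members in each embryo (points), with the mean and SD of each group of 3 (bars); axes start at 0. Cdca5, Birc5 and Plk1 are lower at E14.5 in both genotypes, Ckap2 and Esco2 are higher at E14.5 in WT and lower in HARE5Hs/Hs, and replicate 3 of E12.5 WT is low for Mki67.

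A further 90 genes of the same pathways, which are no members, were measured over the same ages. Of the 90, 29 fell and 3 rose in WT (median −0.21) and 55 fell and 2 rose in HARE5Hs/Hs (median −0.44). Of all genes tested, 15.2% fell and 20.0% rose in WT, and 22.0% fell and 23.7% rose in HARE5Hs/Hs. The 26 other mitotic regulators gave 19 lower in WT (median −0.40) and 25 lower in HARE5Hs/Hs (median −0.59). Among them Mybl2, which encodes B-Myb, fell by 0.83 in WT (SE 0.14, edgeR adjusted p = 0.000876) and by 0.93 in HARE5Hs/Hs (SE 0.14, edgeR adjusted p = 0.000275). E2f7, a repressor of E2F target genes, fell by 0.73 (SE 0.12, edgeR adjusted p = 0.0011) and by 0.90 (SE 0.13, edgeR adjusted p = 0.000199). Trip13, the ATPase that remodels Mad2, fell by 0.74 (SE 0.13, edgeR adjusted p = 0.00123) and by 1.19 (SE 0.13, edgeR adjusted p = 6.34e-05). Tacc3, a spindle protein and partner of Aurora A, fell by 0.54 in WT (SE 0.10, edgeR adjusted p = 0.00202). The kinases Nek2 (−0.67, SE 0.09, edgeR adjusted p = 0.000228) and Melk (−0.68, SE 0.10, edgeR adjusted p = 0.000261) fell in HARE5Hs/Hs.

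A list of 14 genes holds the cohesin ring, which embraces the sister chromatids, with its loaders, its releaser and its protectors. Of these, none fell and 2 rose in WT (median 0.04, from −0.22 to 0.45), where 15.2% of all genes fell and 20.0% rose. In HARE5Hs/Hs 2 fell and 1 rose (median −0.02, from −0.51 to 0.55), where 22.0% of all genes fell and 23.7% rose. Mau2, part of the cohesin loader, was 1 of those higher at E14.5 in WT, by 0.45 (SE 0.09, edgeR adjusted p = 0.00193). The 17 other genes of the checkpoint and APC/C, most of them core subunits of that ubiquitin ligase, gave 2 lower in WT (median −0.07) and 3 in HARE5Hs/Hs (median −0.13). Neither this list nor that of cohesin was called more often than all genes. The 30 other genes of the centromere and outer kinetochore gave 7 lower and 1 higher in WT (median −0.21), and 23 lower and 1 higher in HARE5Hs/Hs (median −0.56). Cenpc1, which binds the centromeric nucleosome, was the higher 1 in WT, by 0.51 (SE 0.09, edgeR adjusted p = 0.00139), and Zwilch, of the complex that brings dynein to kinetochores, fell by 0.86 in HARE5Hs/Hs (SE 0.11, edgeR adjusted p = 0.000131). Of the 3 condensin II subunits, 1 fell in WT and 2 in HARE5Hs/Hs.

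None of these 90 genes passed between genotypes by edgeR. At E14.5 their median was −0.17, with 78 of 90 below 0, where 51.4% of all genes were. The smallest p-values there were those of Sgol1 (shugoshin, the guardian of centromeric cohesion; −0.39, SE 0.10), Zw10 (−0.25, SE 0.07) and Hjurp, the chaperone of Cenpa (−0.24, SE 0.07), each with an edgeR adjusted p of 0.342. At E12.5 Cenpc1 (0.28, SE 0.09), Stag2 (0.23, SE 0.10) and Smc3 (0.17, SE 0.08) had the smallest, each with an edgeR adjusted p of 1. Averaged over the ages, Pmf1 (−0.27, SE 0.08), Sgol1 (−0.21, SE 0.07) and Zw10 (−0.14, SE 0.05) did so, with an edgeR adjusted p of 0.508. For the interaction, the same place was taken by Zwilch (−0.45, SE 0.15), Sgol1 (−0.36, SE 0.13) and Ska2 (−0.42, SE 0.16), with an edgeR adjusted p of 0.921.

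Lists of other cell cycle and cell type genes are set beside the members because they moved over the same embryos. Among all genes, 15.2% fell and 20.0% rose in WT, and 22.0% fell and 23.7% rose in HARE5Hs/Hs. Of 40 DNA replication genes, 35 fell in WT (median −0.49) and 39 in HARE5Hs/Hs (median −0.72). Their median difference between genotypes at E14.5 was −0.24, with 39 of 40 below 0 (51.4% of all genes). Over the same ages all 8 cortical neuron genes rose in both genotypes, with medians of 1.74 in WT and 1.83 in HARE5Hs/Hs. Of 10 radial glia genes, 4 fell and 2 rose in WT (median −0.30), and 6 fell and 1 rose in HARE5Hs/Hs (median −0.47). Intermediate progenitor genes rose, 4 of 5 in WT and 3 of 5 in HARE5Hs/Hs.

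The lists of other cells that can divide had medians below 0 with age too, though not all of their genes fell. Of all genes tested, 15.2% fell in WT and 22.0% in HARE5Hs/Hs. Of 7 meninges genes, 2 fell in WT (median −1.95) and 6 in HARE5Hs/Hs (median −3.14). Of 7 genes of endothelium and pericytes, 5 fell and 1 rose in WT (median −0.90), and 6 fell in HARE5Hs/Hs (median −1.02). Of 8 erythroid genes, 5 fell in WT (median −1.78) and 4 in HARE5Hs/Hs (median −1.09). The erythroid genes did not move alike in HARE5Hs/Hs, where 5 of 8 were below 0. There the globin gene Hbb-y went from 2881, 1917 and 6251 CPM to 808, 1455 and 966 CPM. Another, Hbb-bt, went from 150, 84.3 and 356 CPM to 193, 523 and 441 CPM. Of 7 genes of microglia and macrophages, 2 fell in WT (median −0.66) and 1 in HARE5Hs/Hs (median −0.75). Of 6 genes of choroid plexus and hem, 2 fell in WT and 3 in HARE5Hs/Hs. The part of these cells in the members' fall with age was not tested.

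Between genotypes at E14.5, the radial glia genes had a median of −0.02 but went both ways, from −0.50 to 0.46, with 6 of 10 below 0. Of these 10 genes, 3 had an unadjusted edgeR p under 0.05, where 11.9% of all genes did. Their sums, 2779 to 2992 CPM in WT and 2837 to 2923 CPM in HARE5Hs/Hs, overlapped. The cortical neuron genes had a median of 0.42, with 8 of 8 above 0, and the erythroid genes a median of 1.66, with 8 of 8 above 0. The ventral telencephalon genes, with a median of 1.62, were above 0 in 8 of 8, and summed to 38.9 to 48.8 CPM in WT and 60.3 to 122 CPM in HARE5Hs/Hs. The meninges genes, with a median of −1.18, were below 0 in 7 of 7, as the members were, and summed to 93.1 to 843 CPM in WT and 10.9 to 435 CPM in HARE5Hs/Hs. The median was −0.17 for endothelium and pericytes, −0.08 for microglia and macrophages and −0.13 for choroid plexus and hem. At E12.5, where the members had a median of 0.02, the neuron genes had a median of 0.36, with 8 of 8 above 0. Their sums overlapped, at 1477 to 1558 CPM in WT and 2487, 1371 and 1576 CPM in HARE5Hs/Hs. The erythroid genes there had a median of 0.72, with 8 of 8 above 0. Their sums overlapped too, at 4414 to 5975 CPM in WT and 6254, 4986 and 14894 CPM in HARE5Hs/Hs. The ventral telencephalon genes had a median of 1.45, with 1 of 8 below 0, and the meninges genes one of −0.09, with 5 of 7 below 0. The ventral sums at E12.5 overlapped, at 27.6 to 82.8 CPM in WT and 225, 129 and 28.1 CPM in HARE5Hs/Hs. None of these genes passed by edgeR at either age. Their part in the members' lower level was not tested.

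**Figure D5:**
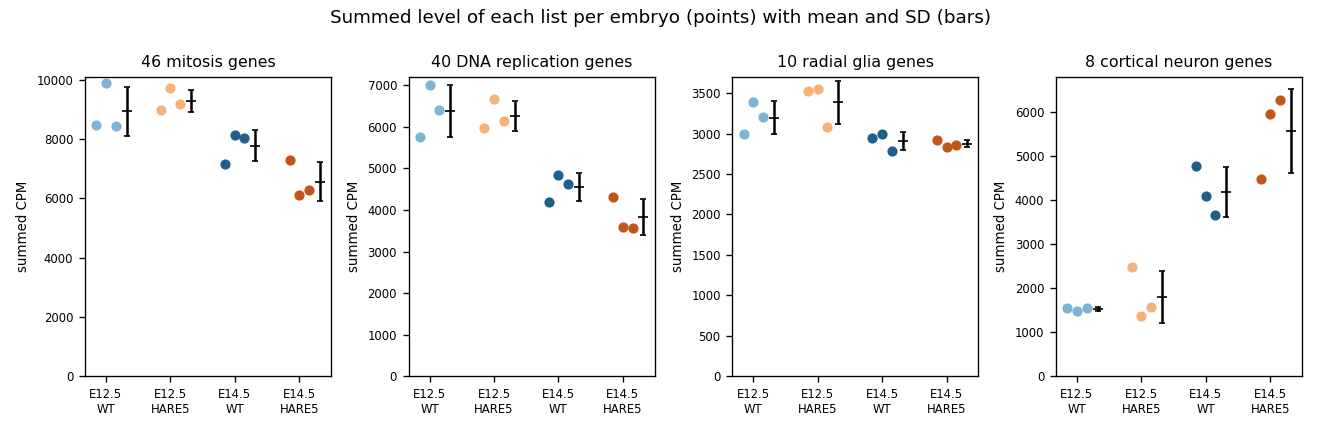
Summed CPM per embryo (points), with the mean and SD of each group of 3 (bars), for the 46 members, 40 DNA replication genes, 10 radial glia genes and 8 cortical neuron genes; axes start at 0. At E14.5 the HARE5Hs/Hs embryos with the lowest sums of members, replicates 2 and 3, have the highest sums of neuron genes, and the radial glia sums of the genotypes overlap.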

How the data were processed

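Per the labels' protocols, RNA of single cortices was extracted with TRIzol and libraries were made with a stranded mRNA kit. Per the submitters' processing notes, STAR, mm39 and DESeq2 were used; their versions, the program that counted and its strand setting are not given. The deposited tables hold, per the file headers, an expected count and an FPKM value for each gene in each library, and the authors' log2 fold change and p-value for age in each genotype. The expected counts are whole numbers, so rounding changed none. In each of the 2 tables, 12 columns of 6 libraries that match no sample were not used.

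Counts were analysed in R 4.3.3 with edgeR 4.0.16, and with DESeq2 1.42.0 as the alternative. Genes were kept by filterByExpr (minimum count 10), scaled by TMM, and fitted by quasi-likelihood over all 12 libraries without a block. The 2-sided p-values were adjusted (Benjamini-Hochberg) over 14311 genes within a contrast, with a threshold of 0.05. CPM (counts scaled to library size) use TMM. Each SE is the log2 fold change over the root of its F statistic. The fit was tested on simulated data. The labels do not say whether embryos share a litter or a day. The p-values set each difference against a spread between embryos that was estimated over all 12 libraries. They treat each embryo as independent, which could not be checked.

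The members and all gene lists were chosen with earlier results of these data known. Named members are the 2 with the smallest p per role and age contrast, the 5 with the smallest p in each genotype contrast and the interaction, and Mki67, Top2a, Ccnb1, Cdk1, Plk1 and Cdca5. Named pathway genes are the 6 and 3 with the smallest p. Esco2, Ckap2, Pttg1 and Mki67 were singled out as exceptions after their values were seen, as were the genes named for a gap between groups. The 5 list symbols Wapl, Sgo1, Sgo2a, Knl1 and Haspin stand in the files as Wapal, Sgol1, Sgol2a, Casc5 and Gsg2. Promoters come from RefSeq (GRCm38.p6), not the authors' build. Alternatives were another test, scaling, filter, threshold and set of libraries, a replicate block, and leaving out each library.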

Additional observations from a re-analysis of the deposited data

Results flagged for a closer look

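The embryos of Ckap2 moved in opposite directions with age in the 2 genotypes, without overlap. The named genes were searched for this pattern, so it is no separate support. In WT 26.1% of all genes were higher at E14.5 without overlap, and in HARE5Hs/Hs 29.6% were lower. How many of all genes did both was not counted. Both age changes of Ckap2 were near the threshold, and each no longer passed in 7 alternatives. Every E14.5 WT embryo (76.8 to 95 CPM) lay above every E12.5 WT embryo (70.3 to 76.5 CPM), and every E14.5 HARE5Hs/Hs embryo (62.1 to 70.8 CPM) lay below every E12.5 HARE5Hs/Hs embryo (78.1 to 81.6 CPM). The genotype by age interaction was −0.50 on the log2 scale (SE 0.12). Its unadjusted p was 0.00144 and its edgeR adjusted p over all genes was 0.921. Esco2 also rose in WT and fell in HARE5Hs/Hs, but its HARE5Hs/Hs ages overlapped, at 30.4 to 38.8 CPM and 24.7 to 30.5 CPM.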

How the results depend on the processing

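The members' direction held across the settings tried for E14.5 against E12.5 in HARE5Hs/Hs (39 to 46 members called) and for HARE5Hs/Hs against WT at E14.5 (45 or 46 of 46 below 0), while the count of members that fell in WT depended on the embryos. That count, 17, was 26 with DESeq2, 26 with total-count scaling, 6 at a threshold of 0.01 and 7 to 27 when 1 embryo was left out; all called members in WT numbered 6 at that threshold and 8 to 27 without 1 embryo. The 2 that rose in WT became 1 with DESeq2 and with DESeq2 size factors, 0 with total-count scaling, 0 with only the WT libraries in the fit, 0 at a threshold of 0.01, 0 with the replicate block, and 0 to 2 without 1 embryo. DESeq2 called 1 member at E14.5 between genotypes. The change of Mki67 in WT turned to 0.0016 without the filter, 0.00080 with the replicate block and, without 1 embryo, ranged from −0.16 to 0.15. Among single genes by alternative, 1277 values kept their side of the threshold, 25 newly passed, 52 no longer passed and 4 changed sign. No scaling moved the median of all genes by over 0.1, but total-count scaling raised the lower share of called genes from 43.2% to 53.6% in WT and from 48.2% to 58.8% in HARE5Hs/Hs.

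Whether equal replicate numbers mark paired embryos could not be decided, as the correlations were few and no litter or day is stated. Between genotypes, deviations from the group means correlated at 0.0963, 0.336 and 0.124 at E12.5, all positive. The E14.5 values were −0.112, −0.144 and −0.443, all negative. Between ages, WT gave −0.0561, 0.0806 and 0.0497, while HARE5Hs/Hs gave −0.2, −0.105 and −0.0618. The members' median deviations at E12.5 ranked alike by replicate, with 0.08, 0.31 and 0.19 for WT against 0.17, 0.29 and 0.21 for HARE5Hs/Hs. Those at E14.5 did not rank alike. With the replicate block 16 members were called in WT, 42 in HARE5Hs/Hs and 0 between genotypes. At E14.5 no member passed between genotypes with edgeR after adjustment over all genes, which does not show that the genotypes were alike.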
